A study of Mus musculus with 13 samples.

Results

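The endoplasmic reticulum (ER) is the compartment in which secreted and membrane proteins are translocated, folded, disulfide-bonded and checked, and the genes described here encode that machinery and the stress response that adjusts it. The set holds 36 genes, taken by their symbols from 23951 gene symbols that were listed identically for both stages. The members are ER chaperones and their DnaJ cofactors, disulfide isomerases and oxidases, translocon components, parts of ER-associated degradation, stress sensors, the transcription factors that act downstream of them, and targets of ATF4 and CHOP. None was listed at 0 in any library, and 4649 symbols were listed at 0 in all of them. The label was checked against the data only in that all 36 symbols were found, with values above 0 in whole gland RNA. At lactation Ern1 did not reach the filter used for testing, 1 FPKM in at least 3 libraries.

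In the unfolded protein response, unfolded proteins draw the chaperone BiP (Hspa5) away from the sensors PERK (Eif2ak3), IRE1 (Ern1) and ATF6. PERK slows translation through eIF2 phosphorylation and favours translation of ATF4, which induces amino acid genes and, through CHOP (Ddit3), regulators of stress outcome. IRE1 splices Xbp1 mRNA so that it encodes an active transcription factor, and ATF6 is cleaved to one, and both act on promoters of chaperone genes. A lactating mammary gland secretes large amounts of milk protein, and the secretory epithelium is remodelled once suckling stops.

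Expression was measured by RNA sequencing of whole, flash-frozen mammary glands of female mice with a conditional knockout of Jak1 (KO) or of wildtype control mice (Con). JAK1 is a tyrosine kinase that relays signals of inflammatory cytokines, and the study asked what it contributes to such signals and to remodelling of the gland. On day 2 of involution there were 4 KO libraries, from mice M43196, M43767, M44176 and M44440, and 3 Con libraries, from M44448, M43768 and M43914. On day 7 of lactation the KO group comprised M44174, M42734 and M43767 (n = 3), and the Con group comprised M42186, M43768 and M44175 (n = 3). Values of a group keep this order of its libraries throughout. The promoter or cell type that drives the recombinase, the strain, the parity and the age of the mice are not given in the labels. Which cells of the gland carry the deletion is not given there either. Numbers M43767 and M43768 stand at both stages, and whether those are the same animals is not stated.

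Values are FPKM, mapped fragments relative to the length of the transcript and the size of the library, so levels of different genes can be compared per length. Read totals per library are not given in the labels, and relative depth alone could be read from the steps of low values. It ran from 0.485 (KO M43196) to 1.502 (KO M44440) of the stage mean at involution, and from 0.723 (Con M44175) to 1.29 (KO M44174) at lactation. Jak1 itself stood at 22.999, 22.2, 26.3 and 17.3 FPKM in KO libraries at involution, against 24.3, 23.97 and 24.6 FPKM in Con libraries. At lactation it stood at 9.51, 10.2 and 11.2 FPKM in KO libraries, against 14.2, 14.03 and 6.18 FPKM in Con libraries. The groups overlapped at both stages, M44176 (labelled KO) being the highest at involution and M44175 (labelled Con) the lowest at lactation. Which exons the deletion removes is not given in the labels, so the genotypes are those of the labels. The lactation library M44175, labelled Con, stood apart: its median log2 deviation from its stage was 0.37 for short transcripts (lowest quartile of length) and -0.26 for long ones (highest quartile), and its summed FPKM was 871630, against 312976 to 421592 in the other lactation libraries. At involution the same deviations ran from -0.09 to 0.15 for short and from -0.16 to 0.07 for long transcripts. The values 0.15 and -0.16 were both those of KO M43196. Its summed FPKM was 1367560, against 590437 to 958496 in the other involution libraries.

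Promoters of the members show which of them carry the elements through which ATF6, XBP1 and ATF4 are known to act. RefSeq promoter windows of build GRCm38.p6, from 250 bases before to 50 bases after the transcription start, matched 31 of the 36 members. Atf6, Creb3l1, Derl1, Manf and Hyou1 had no entry. The ER stress response element (ERSE), CCAAT and CCACG separated by 9 bases, was searched on both strands. It was found in 9 of 31 member promoters (29.0%), and in 39 of all 32851 promoters of the table (0.119%). The elements are shown in the orientation of the motif, with CCAAT and CCACG in capitals and the spacer in lower case:
Hspa5 (65 bases upstream): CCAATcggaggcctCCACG
Hsp90b1, distal (212 bases upstream): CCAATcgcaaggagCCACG
Hsp90b1, proximal (107 bases upstream): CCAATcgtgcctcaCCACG
Calr (162 bases upstream): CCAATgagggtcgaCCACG
Canx (145 bases upstream): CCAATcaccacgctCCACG
Pdia6 (98 bases upstream): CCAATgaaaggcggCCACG
Ero1lb (201 bases upstream): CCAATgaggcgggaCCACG
Dnajc3 (105 bases upstream): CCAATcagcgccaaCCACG
Derl3 (156 bases upstream): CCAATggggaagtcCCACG
Syvn1 (44 bases upstream): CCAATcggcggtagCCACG
Hsp90b1 was the one member with a pair of full elements, and no spacer was shared between promoters.

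The windows of Hspa5, Hsp90b1 and Derl3 are printed whole, as a promoter in which the element has long been studied, the one with 2 elements and that of the member with the lowest KO level relative to Con. Each runs 5′ to 3′ on the gene's strand, with the full ERSE in capitals. Hspa5 lies at chr2:34771840-34772139 on the plus strand, Hsp90b1 at chr10:86705395-86705694 on the minus strand, and Derl3 at chr10:75893148-75893447 on the plus strand.
Hspa5: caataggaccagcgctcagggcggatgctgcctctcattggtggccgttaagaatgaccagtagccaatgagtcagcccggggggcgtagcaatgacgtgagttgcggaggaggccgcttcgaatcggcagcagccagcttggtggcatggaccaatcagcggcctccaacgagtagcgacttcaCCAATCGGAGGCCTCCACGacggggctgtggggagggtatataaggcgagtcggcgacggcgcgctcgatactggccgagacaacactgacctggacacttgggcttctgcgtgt
Hsp90b1: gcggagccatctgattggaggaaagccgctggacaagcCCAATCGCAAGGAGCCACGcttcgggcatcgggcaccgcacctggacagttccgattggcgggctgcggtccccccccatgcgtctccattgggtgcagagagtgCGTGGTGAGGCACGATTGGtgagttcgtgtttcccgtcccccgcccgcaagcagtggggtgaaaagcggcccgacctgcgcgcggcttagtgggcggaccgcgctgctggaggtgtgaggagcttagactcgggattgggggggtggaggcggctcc
Derl3: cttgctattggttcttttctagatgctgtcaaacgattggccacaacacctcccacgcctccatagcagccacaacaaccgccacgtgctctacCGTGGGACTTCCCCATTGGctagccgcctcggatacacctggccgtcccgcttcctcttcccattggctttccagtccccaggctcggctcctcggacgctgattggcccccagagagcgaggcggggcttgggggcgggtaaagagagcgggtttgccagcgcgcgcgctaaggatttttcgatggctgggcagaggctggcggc
In Hspa5 the element ends shortly before a TATA-like stretch (tatataa), whereas in Derl3 it lies on the opposite strand and so appears reversed in the printed window.

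The related ERSE-II element, ATTGG and CCACG separated by 1 base, was found in Dnajb11 and Herpud1, that is in 2 of 31 member promoters (6.45%), and in 12 of all promoters (0.0365%). The core TGACGTGG of the unfolded protein response element was found in 0 of the 31, and in 222 of all promoters (0.676%). The core TGATGNAA of the composite element bound by ATF4 with C/EBP partners was found in 4 of 31 (12.9%), against 1304 of all promoters (3.97%). These 4 are shown with 8 flanking bases on each side and the core in capitals:
Chac1 (193 bases upstream): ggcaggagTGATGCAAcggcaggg
Trib3 (14 bases downstream): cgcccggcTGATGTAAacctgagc
Asns (23 bases upstream): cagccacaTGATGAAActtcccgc
Herpud1 (112 bases upstream): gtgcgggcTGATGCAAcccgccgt
No match of one motif overlapped a match of another, and Herpud1 was the one member with both an ERSE-II and an ATF4 core.

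**Figure D1:**
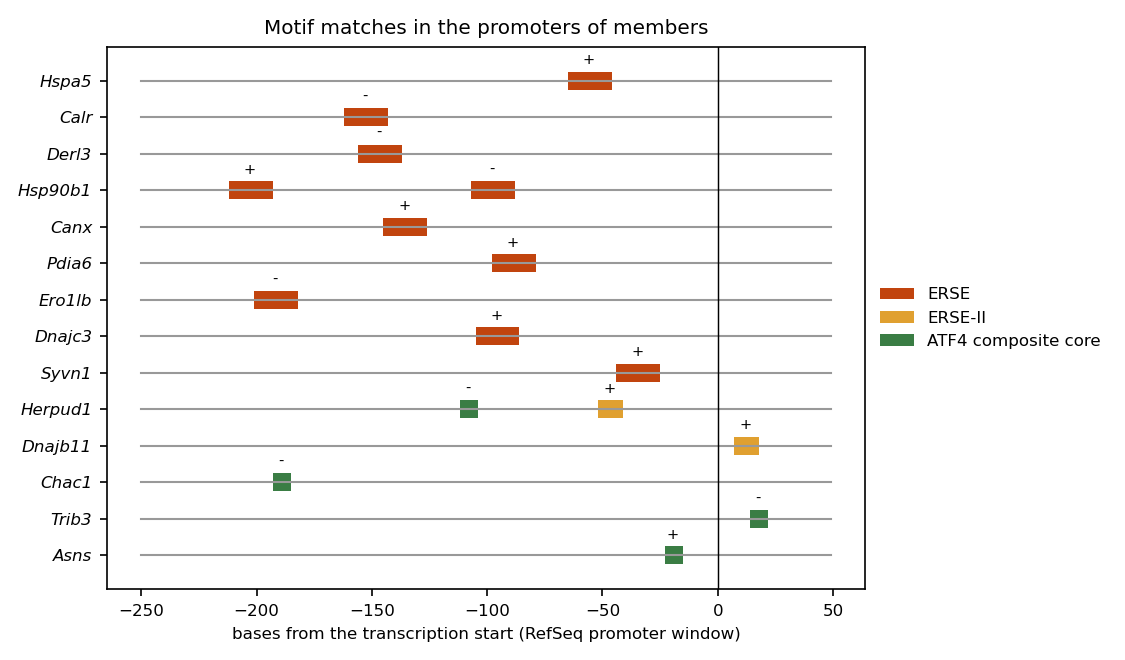
Positions of motif matches in the promoter windows of the 14 members that hold any; the x axis gives bases from the transcription start, each line is 1 promoter, and plus or minus marks the strand of the match. ERSE matches (red) lie between 212 and 44 bases upstream, whereas the ERSE-II of Dnajb11 and the ATF4 core of Trib3 lie downstream of the start.

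At involution, the comparison of KO with Con glands asks whether loss of JAK1 changes the ER machinery while the gland regresses. No member passed the test: limma found 0 of 36 at an adjusted p under 0.05, with Benjamini-Hochberg adjustment over 12509 genes, of which 0.056% were called lower and 0.016% higher in KO. Of the 36 log2 differences 32 were negative, with a median of -0.37 (KO minus Con), against a median of 0.01 and 48.2% negative over all genes tested. An unadjusted p under 0.05 was found for 13 members, all negative, against 3.24% of all genes on the negative and 3.6% on the positive side. Every KO library lay below every Con library in 12 members, against 4.42% of all genes, and above in 0, against 2.67%. The counts moved with single libraries: unadjusted p under 0.05 was found for 6 members without KO M44440 and for 7 without Con M43768, and 19 members had no overlap without M44176, labelled KO. Leaving out a library can only keep or raise a count of members without overlap, and the share of all genes was not recomputed for it. Because whole glands were sequenced, fewer secretory cells and less RNA of a gene per cell cannot be told apart.

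**Figure D2:**
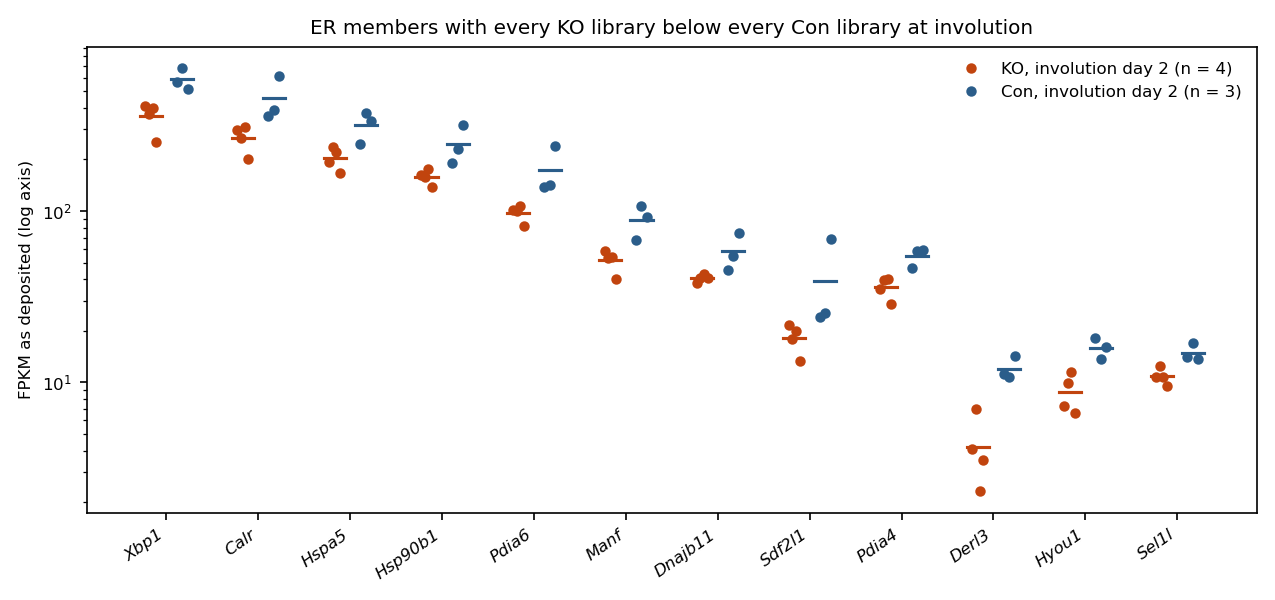
FPKM as deposited (log axis) of the 12 members whose KO libraries all lay below all Con libraries at involution day 2, with 1 point per library and a line at the group mean (KO n = 4, Con n = 3). The gap between groups is widest for Derl3, and Con M43914 stands above the other Con libraries for Calr, Pdia6, Sdf2l1 and Hsp90b1.

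All 7 ER chaperones and chaperone-class members had negative differences at involution, with a median of -0.71, and in 6 of them the groups did not overlap. Hspa5, encoding BiP, the main Hsp70 of the ER lumen, stood at 194, 237, 222 and 167 FPKM in KO glands, against 247, 373 and 338 FPKM in Con glands. The highest KO library lay just under the lowest Con library. Its means were 205 ± 30.9 FPKM in KO and 319 ± 65.1 FPKM in Con (SD, n = 4 and 3), a log2 difference of -0.60 ± 0.22 (SE; limma, adjusted p = 0.637). Hsp90b1, the ER paralogue of Hsp90 also known as GRP94, stood at 162, 158, 177 and 139 FPKM in KO glands, against 191, 230.2 and 317 FPKM in Con glands, a log2 difference of -0.58 ± 0.21 (SE; limma, adjusted p = 0.639). Con M43914 was far above the other Con libraries and the KO libraries lay close together. Without Con M43914 the log2 difference of Hsp90b1 was -0.39. Hyou1, a large Hsp70-class chaperone that exchanges nucleotide on BiP, stood at 7.29, 9.96, 11.4 and 6.58 FPKM in KO glands, against 18.1, 13.6 and 16.1 FPKM in Con glands. Its log2 difference was -0.78 ± 0.21 (SE; limma, adjusted p = 0.473), and the ranges were clearly apart.

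Calr (calreticulin), a lectin chaperone of glycoproteins, was one of the most abundant members, at 296, 267, 309 and 201 FPKM in KO glands and 357, 391 and 615 FPKM in Con glands, with a log2 difference of -0.71 ± 0.26 (SE; limma, adjusted p = 0.637). Without Con M43914 that difference was -0.48. Canx (calnexin), its membrane-bound counterpart, stood at 44.9, 44.9, 56.4 and 36.1 FPKM in KO glands, against 49.5, 50.9 and 76.4 FPKM in Con glands, and was the 1 chaperone whose groups overlapped. Sdf2l1, a partner of BiP and its DnaJ cofactors, stood at 21.7, 17.8, 19.98 and 13.3 FPKM in KO glands, against 24.02, 25.3 and 68.3 FPKM in Con glands. That contrast rested largely on 1 library: its log2 difference of -0.89 ± 0.36 (SE; limma, adjusted p = 0.693) became -0.43 without Con M43914. Manf, a small secreted and ER-resident protein that binds BiP, stood at 58.7, 53.6, 54.01 and 39.98 FPKM in KO glands, against 67.4, 106 and 92.1 FPKM in Con glands, with a log2 difference of -0.73 ± 0.21 (SE; limma, adjusted p = 0.482). All of its KO libraries lay under the lowest Con library, and KO M44440 was lowest.

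The DnaJ cofactors, which recruit substrates to BiP and stimulate its ATPase, had 3 of 3 negative differences with a median of -0.46. Dnajb11 (ERdj3) stood at 38.2, 40.5, 42.7 and 40.8 FPKM in KO glands, against 45.3, 54.7 and 74.9 FPKM in Con glands, with a log2 difference of -0.46 ± 0.18 (SE; limma, adjusted p = 0.693). Its KO libraries were almost level, while the Con libraries spread upwards to M43914; without that library the log2 difference was -0.28. Dnajc3 (p58IPK), which is also known as an inhibitor of PERK, stood at 18.1, 18.9, 22.9 and 14.8 FPKM in KO glands, against 21.8, 29.97 and 42.3 FPKM in Con glands. Here M44176, labelled KO, exceeded Con M44448, so the groups overlapped. Dnajb9 (ERdj4) stood at 22.3, 22.2, 28.9 and 11.5 FPKM in KO glands, against 20.7, 31.9 and 24.4 FPKM in Con glands, with wide overlap.

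Disulfide isomerases form and rearrange disulfide bonds in folding proteins, and the ERO1 oxidases re-oxidise them. All 6 such members had negative differences, with a median of -0.53. Pdia6 stood at 101, 99.7, 107 and 81.5 FPKM in KO glands, against 139, 143 and 239 FPKM in Con glands, with a log2 difference of -0.76 ± 0.23 (SE; limma, adjusted p = 0.543). Without Con M43914 that difference was -0.52. Pdia4 stood at 35.2, 39.5, 40.2 and 28.5 FPKM in KO glands, against 46.3, 58.5 and 59.5 FPKM in Con glands, with a log2 difference of -0.58 ± 0.18 (SE; limma, adjusted p = 0.546). For both the ranges were separate, more widely for Pdia6. Pdia3, the isomerase that works with calreticulin and calnexin, stood at 179, 169, 187 and 141 FPKM in KO glands and 169, 270.4 and 340.2 FPKM in Con glands. P4hb, the founding isomerase, stood at 181, 149, 262 and 161 FPKM in KO glands and 212, 222 and 417 FPKM in Con glands. In Pdia3 Con M44448 fell among the KO values, and in P4hb M44176, labelled KO, fell among the Con values. The oxidases Ero1l and Ero1lb were lower per length than the isomerases, at 10.1 to 18.2 and at 2.36 to 4.51 FPKM over all 7 libraries, and overlapped between groups.

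The translocon members, which carry nascent chains into the ER, both had negative differences with a median of -0.28. Sec61b, a channel subunit, ranged from 178 to 314 FPKM in KO glands and from 253 to 433 FPKM in Con glands. Ssr1, a subunit of the translocon-associated TRAP complex, ranged from 10.9 to 15.3 FPKM in KO glands and from 14.7 to 20.2 FPKM in Con glands. Both overlapped between groups, Ssr1 through single libraries on either side.

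ER-associated degradation, which returns misfolded proteins to the cytosol for the proteasome, was less uniform, with 4 of 6 differences negative and a median of -0.24. Derl3, a derlin of the retrotranslocation machinery, had the largest difference of the set. It stood at 4.07, 6.98, 2.31 and 3.50 FPKM in KO glands, against 11.2, 10.7 and 14.2 FPKM in Con glands, with means of 4.21 ± 1.98 FPKM in KO and 12.03 ± 1.88 FPKM in Con (SD, n = 4 and 3). Its log2 difference was -1.36 ± 0.28 (SE; limma, adjusted p = 0.274), and even the highest KO library lay well under the lowest Con library. Sel1l, the adaptor that stabilises the ubiquitin ligase HRD1, stood at 10.7, 12.5, 10.8 and 9.54 FPKM in KO glands and 14.1, 17.1 and 13.7 FPKM in Con glands, with a log2 difference of -0.40 ± 0.15 (SE; limma, adjusted p = 0.654). Syvn1, which encodes HRD1 itself, ranged from 12.9 to 22.1 FPKM in KO glands and from 16.9 to 23.0 FPKM in Con glands. Edem1, a lectin-like factor that extracts glycoproteins from the folding cycle, ranged from 10.1 to 12.9 FPKM in KO glands and from 12.8 to 15.9 FPKM in Con glands, an overlap by 1 KO library. The differences of Herpud1 and Derl1, 0.021 and 0.013 on the log2 scale, were near 0. Herpud1 averaged 20.9 ± 6.05 FPKM in KO glands and 21.7 ± 8.66 FPKM in Con glands, and Derl1 38.3 ± 11.2 FPKM in KO glands and 38.1 ± 8.31 FPKM in Con glands (SD, n = 4 and 3), with ranges that overlapped throughout.

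The sensors were expressed at low levels, and all 3 differences were negative with a median of -0.32, while none of the groups separated. Ern1 (IRE1) ranged from 1.14 to 2.01 FPKM in KO glands and from 1.504 to 2.78 FPKM in Con glands. Eif2ak3 (PERK) ranged from 4.25 to 4.79 FPKM in KO glands and from 4.67 to 6.48 FPKM in Con glands. Atf6 ranged from 3.47 to 5.80 FPKM in KO glands and from 5.60 to 7.09 FPKM in Con glands. In each, a single library per group accounted for the overlap.

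Among the transcription factors, 4 of 5 differences were negative with a median of -0.35. Xbp1, the most abundant member per length at this stage, stood at 409, 367, 398 and 254 FPKM in KO glands, against 570.2, 683 and 517 FPKM in Con glands. Its means were 357 ± 70.7 FPKM in KO and 589.8 ± 84.7 FPKM in Con (SD, n = 4 and 3), a log2 difference of -0.71 ± 0.24 (SE; limma, adjusted p = 0.597), and the groups did not overlap. A level per gene does not separate spliced from unspliced Xbp1 mRNA, so it carries no reading of IRE1 activity. Atf4 stood at 135, 164, 127 and 164 FPKM in KO glands and 148, 222 and 162 FPKM in Con glands, with overlap. Ddit3, encoding CHOP, stood at 41.4, 42.8, 22.4 and 39.1 FPKM in KO glands, against 30.4, 43.2 and 22.0 FPKM in Con glands. It was one of the members without a negative difference, and the lowest and the highest library of one group lay close to those of the other. Creb3l1 and Creb3l2, ER-anchored factors cleaved like ATF6, ranged from 6.25 to 16.3 and from 2.21 to 4.02 FPKM in KO glands, against 11.7 to 21.3 and 3.23 to 4.54 FPKM in Con glands.

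Targets of ATF4 and CHOP had the role median nearest to 0, at -0.15, with 3 of 4 differences negative. Trib3, a pseudokinase, stood at 19.1, 13.05, 9.75 and 21.3 FPKM in KO glands, against 12.8, 14.7 and 13.7 FPKM in Con glands, with the KO libraries on both sides of Con. Asns, asparagine synthetase, stood at 27.2, 29.2, 22.7 and 13.05 FPKM in KO glands, against 22.0, 28.9 and 23.8 FPKM in Con glands, and KO M44440 alone was low. Chac1, a glutathione-degrading enzyme, ranged from 3.98 to 10.8 FPKM in KO glands and from 7.37 to 17.8 FPKM in Con glands. Ppp1r15a (GADD34), which directs the dephosphorylation of eIF2, ranged from 6.67 to 9.44 FPKM in KO glands and from 8.43 to 10.01 FPKM in Con glands.

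Read beside the promoters, the 9 members with a full ERSE had 9 of 9 negative differences, a median of -0.60 and a range from -1.36 to -0.23. Separate groups were found in 5 of them (Hspa5, Hsp90b1, Calr, Pdia6 and Derl3), against 4.42% of all genes with every KO library below every Con library. The 22 members with a promoter entry but no ERSE had 19 negative differences, a median of -0.31 and 5 with separate groups. The 4 members with the ATF4 core had a median of -0.06, 2 negative differences and 0 with separate groups. A 0 among 4 genes cannot be told from the share of all genes. These are counts in small sets chosen with the data known, and the differences between the sets were not tested.

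Low values gathered in few libraries. KO M44440 was the lowest of the 7 involution libraries in 22 of the 36 members, and it was also the deepest, and the part of depth was not tested. The highest value came from Con M43914 in 15 members and from Con M43768 in 14. Without KO M44440 the members' median was -0.32, and over all alternatives it stayed between -0.45 and -0.32.

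Marker lists of other cell types were read at involution as well. The 8 fibroblast markers all had positive differences, with a median of 0.77 and summed levels of 317 to 817 FPKM in KO glands, against 185 to 418 FPKM in Con glands. All 8 adipocyte markers were positive too, with a median of 0.58 and sums of 982 to 7240 FPKM in KO glands, against 1305 to 3096 FPKM in Con glands. Basal epithelial markers were positive in 7 of 8 with a median of 0.39 and sums of 463 to 546 FPKM in KO glands, against 244 to 416 FPKM in Con glands, and macrophage markers in 7 of 8 with a median of 0.41 and sums of 143 to 424 FPKM in KO glands, against 152 to 218 FPKM in Con glands. The 10 luminal markers, a list not restricted to secretory cells, had a median of -0.03, with 6 negative and sums of 1596 to 2706 FPKM in KO glands, against 1650 to 2276 FPKM in Con glands, so they overlapped widely. They give no measure of the secretory cells alone. Plasma cells also carry a large ER, and their markers together with those of B cells had 6 of 7 negative differences and a median of -0.31, with sums of 80.8 to 249 FPKM in KO glands, against 125 to 334 FPKM in Con glands. Of that list, Igj was at 209.9, 222, 82.6 and 63.5 FPKM in KO glands and 97.2, 229 and 291 FPKM in Con glands. Sdc1, which epithelium expresses too, was the 1 of 7 with separate groups, against 4.42% of all genes. Neutrophil (4 tested) and skeletal muscle markers (5 tested) had medians of -0.05 and 0.02, and the muscle sum ran from 4.26 to 4435 FPKM in KO glands and from 55.3 to 1148 FPKM in Con glands. No gene of these marker lists was at 0 in every library of a group, none was called by limma, and their part in the levels of the ER genes was not tested. Of the 8 milk protein genes, Csn1s1, Csn1s2b, Csn2 and Wap were listed at 0 in every library of both groups, and Csn1s2a in every KO library, against 20351 to 41984 FPKM in Con glands. An exact 0 in such genes can be a failed estimate, so no fold is given for Csn1s2a, which limma called lower in KO (adjusted p = 6.9e-08). Csn3 ranged from 2466 to 10406 FPKM in KO glands and from 7258 to 15123 FPKM in Con glands, with a log2 difference of -0.88 ± 0.52 (adjusted p = 0.905), and the differences of Lalba and Glycam1 were 0.14 and 0.50. The summed milk protein genes came to 13504 to 46132 FPKM in KO glands and 44534 to 97274 FPKM in Con glands, a sum to which Csn1s2a contributes in Con alone, and their part in the levels of the ER genes was not tested.

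**Figure D3:**
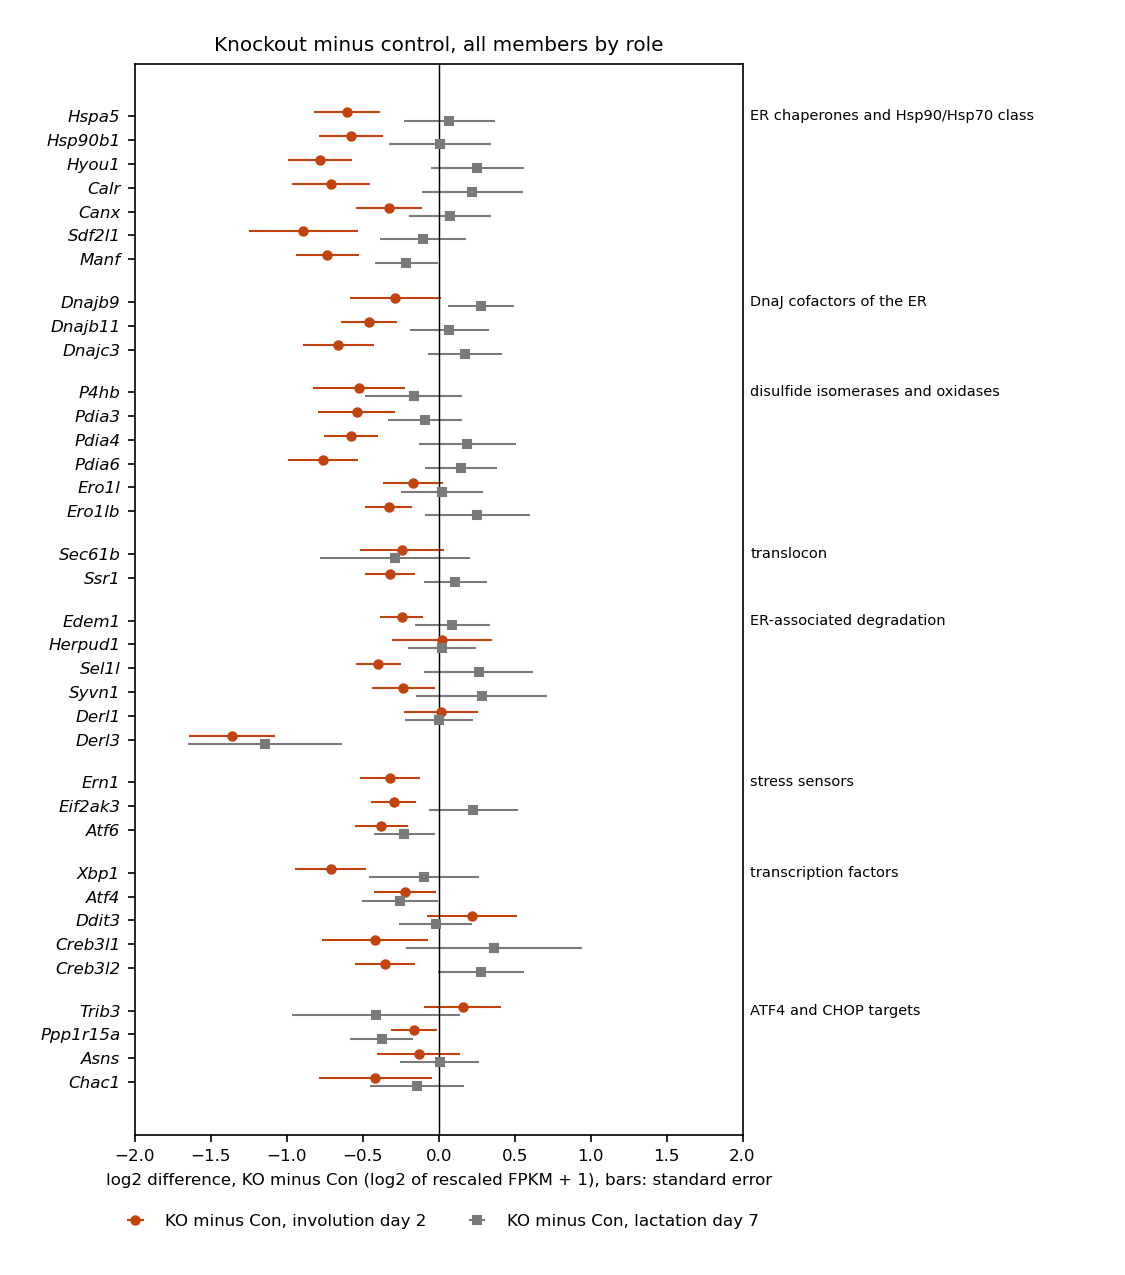
Log2 differences, KO minus Con, of all 36 members by role, with bars for the standard error from limma; red circles are involution day 2 (KO n = 4, Con n = 3) and grey squares lactation day 7 (n = 3 each, Ern1 not tested). At involution 32 of 36 circles lie left of zero, whereas the squares lie on both sides, with Derl3 left of zero at both stages.

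At lactation, the same comparison found 0 of 35 members called, with 9560 genes tested of which 0% were called lower and 0.0105% higher in KO. Ern1 did not pass the filter, which asked for 1 FPKM in at least 3 libraries. The members' median was 0.02, against 0.01 over all genes, with 13 negative and 22 positive differences. An unadjusted p under 0.05 was found for 0 members, against 0.607% of all genes on the negative and 1.78% on the positive side. Every KO library lay below every Con library in 3 tested members, against 3.17% of all genes, and above in 0, against 2.89%. That count was 10 without Con M44175 and 6 without Con M42186. Leaving out a library can only keep or raise it, and the share of all genes was not recomputed. The members' median was -0.13 without Con M44175. This library was the lowest of the 6 in 21 members and the highest in 7.

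Derl3 had the largest difference at this stage too, at 4.91, 5.48 and 19.1 FPKM in KO glands, against 12.2, 25.2 and 26.4 FPKM in Con glands. KO M43767 exceeded Con M42186, and the log2 difference was -1.14 ± 0.51 (SE; limma, adjusted p = 0.998). The 3 members with separate groups on the deposited FPKM were Ppp1r15a, Atf6 and Manf. With the median-of-ratios factors, Con M44175 fell among the KO values in Ppp1r15a and Atf6, and Manf alone stayed separate. Ppp1r15a stood at 1.55, 1.79 and 1.25 FPKM in KO glands, against 2.60, 2.71 and 1.83 FPKM in Con glands, with a log2 difference of -0.38 ± 0.21 (SE; limma, adjusted p = 0.998). Atf6 stood at 2.68, 2.42 and 3.09 FPKM in KO glands, against 3.52, 3.93 and 3.10 FPKM in Con glands, with a log2 difference of -0.23 ± 0.20 (SE; limma, adjusted p = 0.998). The gaps between groups were narrow in both, less than the range within Con. Manf stood at 33.7, 33.2 and 29.01 FPKM in KO glands, against 34.7, 36.7 and 46.2 FPKM in Con glands, with a log2 difference of -0.21 ± 0.21 (SE; limma, adjusted p = 0.998), and M44175 was the highest of its Con libraries.

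Dnajb9 was the 1 positive difference among the 5 members with the smallest p, at 16.1, 19.4 and 12.8 FPKM in KO glands, against 13.4, 12.7 and 14.6 FPKM in Con glands, with a log2 difference of 0.28 ± 0.22 (SE; limma, adjusted p = 0.998). Ern1, below the filter, stood at 1.03, 0.936 and 1.02 FPKM in KO glands, against 0.734, 0.829 and 0.517 FPKM in Con glands, with every KO library above every Con library. Hspa5 and Xbp1, whose groups were separate at involution, overlapped here. Hspa5 stood at 137, 134 and 148 FPKM in KO glands and 177, 135 and 112 FPKM in Con glands, with the KO values inside the Con range. Xbp1 stood at 164, 265 and 161 FPKM in KO glands and 138, 290.4 and 245 FPKM in Con glands, again with KO inside the Con range.

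By role, the lactation medians were 0.07 for 7 chaperones, 0.17 for 3 DnaJ cofactors, 0.08 for 6 isomerases and oxidases, and 0.06 for 6 degradation factors. They were -0.09 for the 2 translocon members, -0.02 for 5 transcription factors and -0.26 for 4 targets of ATF4 and CHOP. In Sec61b, M44175 reached 642 FPKM, against 161 and 217 FPKM in the other Con libraries and 160 to 307 FPKM in KO glands, and Sec61b has the shortest median transcript length of the members, 430 bases in the GENCODE annotation. Fibroblast markers (7 of 7) and adipocyte markers (8 of 8) were positive at lactation as well, with medians of 0.73 and 0.83. Luminal markers had 6 of 10 negative with a median of -0.13. Their sums were 517 to 593 FPKM in KO glands, against 608 to 664 FPKM in Con glands, and did not overlap. Basal markers had 6 of 8 positive with a median of 0.20. Macrophage markers had 3 of 3 positive with a median of 0.38, and plasma and B cell markers 3 of 4 negative with a median of -0.14. The part of these markers in the levels of the ER genes was not tested.

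**Figure D4:**
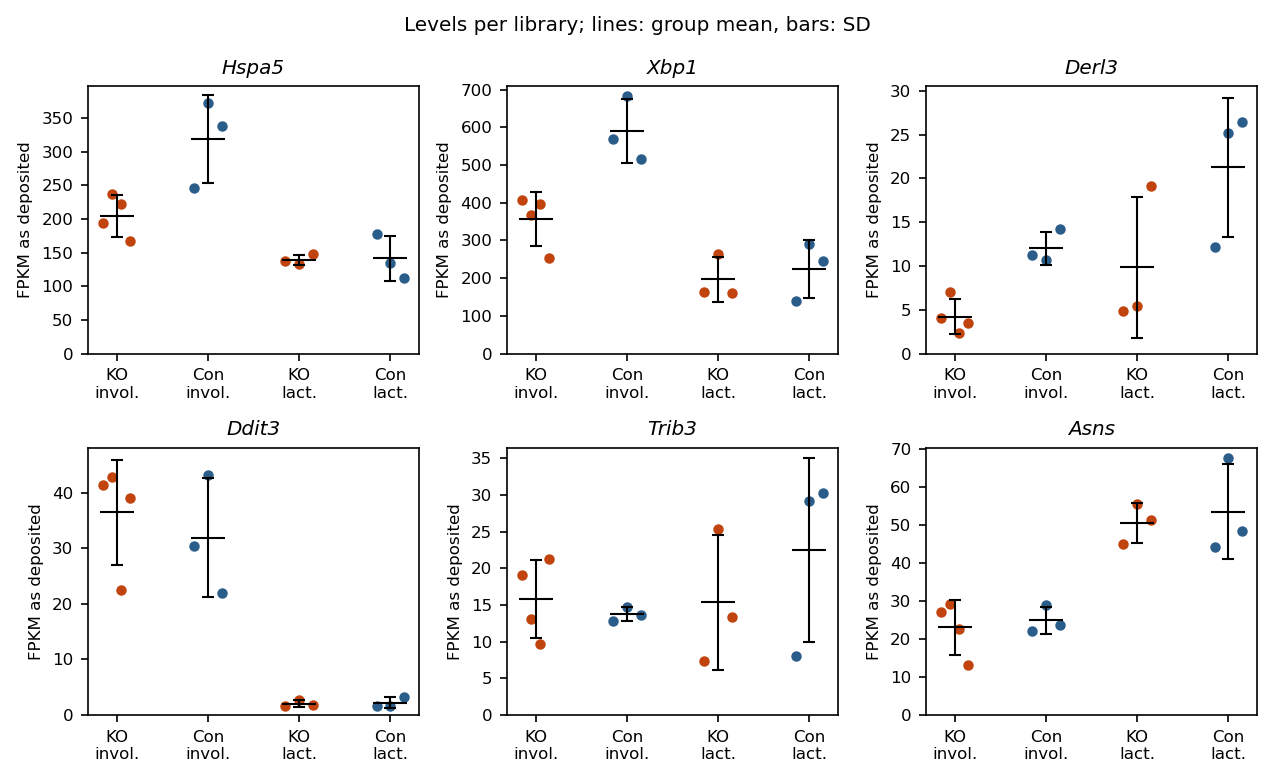
FPKM as deposited of Hspa5, Xbp1, Derl3, Ddit3, Trib3 and Asns in the 4 groups, with 1 point per library, a line at the mean and bars for the SD. Hspa5 and Xbp1 separate KO from Con at involution and overlap at lactation, and Ddit3 lies between 1.53 and 3.31 FPKM at lactation and between 22.0 and 43.2 FPKM at involution.

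Whether the KO effect itself differed between stages was tested in 1 joint fit, as KO minus Con at involution less KO minus Con at lactation. It called 0 of 36 members, against 0.0632% of 12667 genes called lower and 0.0158% called higher. The members' median was -0.52, with 30 of 36 negative, against a median of 0.01 over all genes. An unadjusted p under 0.05 was found for 5 members, all negative, against 1.89% of all genes on the negative and 1.46% on the positive side. These were Pdia6 at -0.91 ± 0.32 (SE; limma, adjusted p = 0.999), Hyou1 at -1.04 ± 0.38 (SE; limma, adjusted p = 0.999), Dnajc3 at -0.83 ± 0.34 (SE; limma, adjusted p = 0.999), Ern1 at -0.59 ± 0.25 (SE; limma, adjusted p = 0.999) and Calr at -0.93 ± 0.42 (SE; limma, adjusted p = 0.999). The KO effect on the members is therefore not shown to differ between the stages. The count of 5 was 2 without Con M43914, without KO M44440 or without Con M44175, and 3 without KO M43767 of either stage or without KO M44174. It was 9 without Con M42186 and 8 without the lactation library of Con M43768.

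The stages were set side by side without a test, because each stage was deposited in a table of its own and may have been scaled on its own. As deposited, the median gene stood 1.11 higher on the log2 scale at involution than at lactation in KO glands and 1.06 higher in Con glands, and every involution library exceeded every lactation library in 80.1% of genes in KO and 73.3% in Con. Levels were therefore rescaled by 1 factor per library over all 13, from 1.43 to 1.59 at involution and from 0.591 to 0.699 at lactation. After rescaling, the medians of all genes were 0.19 in KO and 0.17 in Con, and those of the members were -0.63 in KO and -0.10 in Con. Directions below are relative to this rescaling. Csn1s1, Csn1s2a, Csn1s2b, Csn2, Csn3 and Wap were listed at 0 in every lactation library of both groups. The part of these milk protein genes in the scaling between stages was not tested. With values as deposited, 21 members in KO and 25 in Con lay higher in every involution library, against 80.1% and 73.3% of all genes. Every involution library lay lower in 2 members in KO and 1 in Con, against 309 and 296 of 12667 genes. Of the members whose rescaled ranges were separate, 14 of 24 in KO and 2 of 12 in Con had a difference of the opposite sign as deposited.

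**Figure D5:**
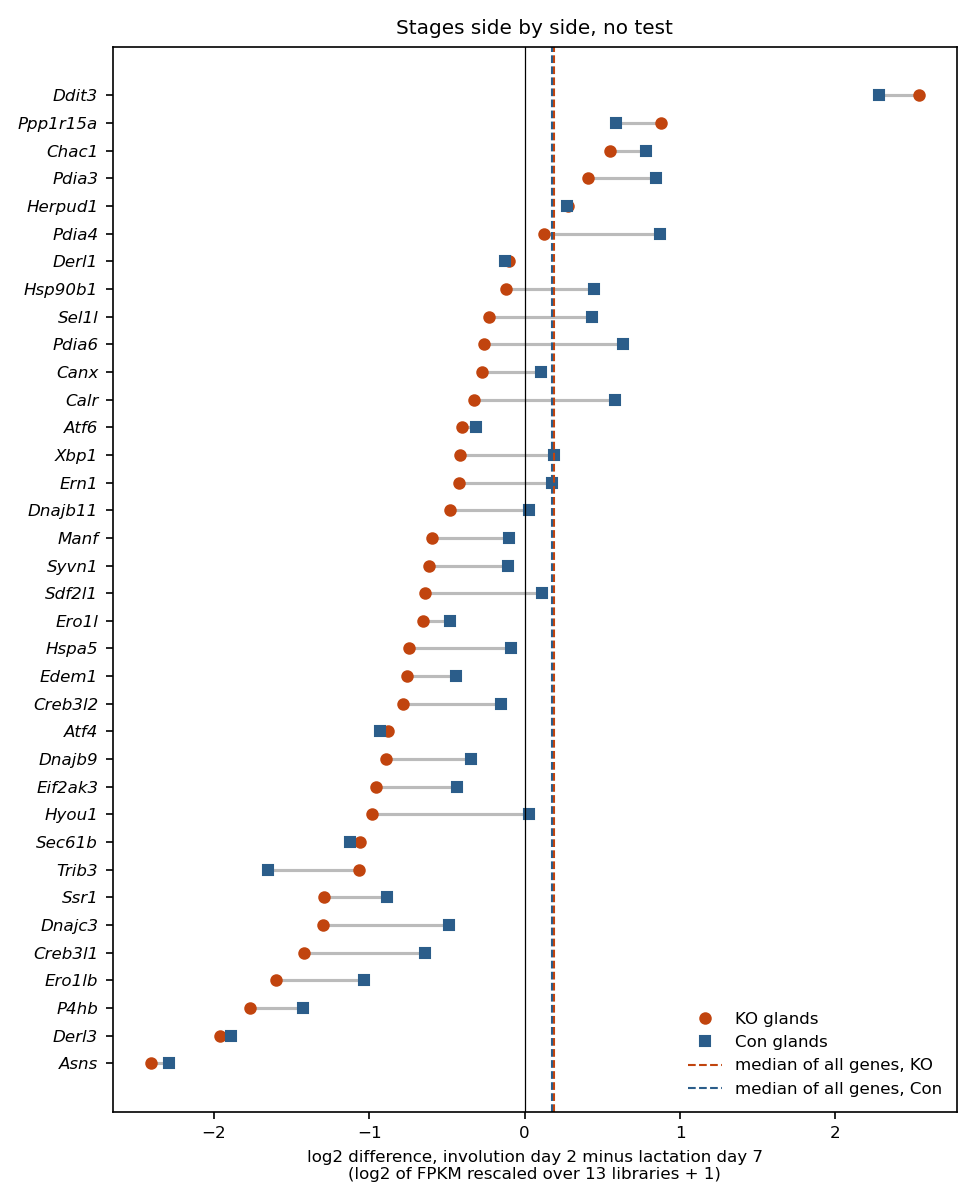
Log2 difference, involution day 2 minus lactation day 7, of each member after rescaling over 13 libraries, for KO glands (circles) and Con glands (squares), with dashed lines at the median of all genes. Ddit3 lies far to the right in both genotypes and Asns far to the left, and for most chaperones the circle lies left of the square.

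In KO glands, all rescaled involution libraries lay below all lactation libraries in 21 members, against 17.9% of all genes, and above in 3, against 29.2%. In Con glands, they lay below in 7 members, against 14.9% of all genes, and above in 5, against 27%. The Con count of 7 was 16 without Con M44175. Leaving out a library can only keep or raise such a count, and the share of all genes was not recomputed. These comparisons use the same libraries as those of KO with Con and add no independent values.

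Ddit3 (CHOP) had the largest shift to involution in both genotypes. Its rescaled level was 24.6 ± 6.70 FPKM at involution and 3.36 ± 1.06 FPKM at lactation in KO glands, and 20.9 ± 7.18 FPKM at involution and 3.43 ± 1.14 FPKM at lactation in Con glands. The involution libraries stood above the lactation libraries as deposited too. Ppp1r15a, a target of CHOP, went the same way, with rescaled means of 5.46 ± 0.840 FPKM at involution and 2.51 ± 0.407 FPKM at lactation in KO glands, and 6.10 ± 0.678 and 3.79 ± 1.01 FPKM in Con glands. Pdia3 was the remaining member above in both genotypes, with log2 differences of 0.41 in KO and 0.84 in Con. Pdia4 and Pdia6 were above in Con glands, with log2 differences of 0.87 and 0.63, and overlapped between stages in KO glands, with 0.12 and -0.26.

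Asns lay furthest the other way, at 15.5 ± 4.99 rescaled FPKM at involution and 83.3 ± 9.51 at lactation in KO glands, and 16.3 ± 2.24 and 84.4 ± 21.7 in Con glands. Derl3, P4hb, Ero1lb, Ssr1 and Atf4 were likewise below in both genotypes, with log2 differences from -1.96 to -0.88 in KO and from -1.89 to -0.88 in Con. Trib3 was below in Con glands alone and overlapped in KO glands, and the joint fit did not call its difference between genotypes. So Ddit3 and Ppp1r15a stood higher at involution, while Atf4 and its target Asns stood lower on the rescaled scale. Chac1, also among the targets of ATF4 and CHOP, went the other way from Asns. Its rescaled log2 differences were 0.55 in KO and 0.78 in Con with overlapping ranges, and as deposited it lay above at involution in both genotypes. As deposited, Atf4 averaged 148 ± 19.1 FPKM at involution and 111 ± 11.8 FPKM at lactation in KO glands (SD, n = 4 and 3), so its direction depends on the scaling, whereas Asns averaged 23.05 ± 7.21 FPKM and 50.6 ± 5.28 FPKM and was lower either way.

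For Hspa5, the rescaled mean was 138 ± 22.7 FPKM at involution and 229.6 ± 17.8 FPKM at lactation in KO glands, with separate ranges, and 208 ± 37.97 and 226 ± 69.4 FPKM in Con glands, with overlap. Hyou1, Manf, Sdf2l1, Dnajb9, Dnajb11, Dnajc3, Edem1, Eif2ak3, Ern1, Atf6, Creb3l1, Creb3l2, Ero1l and Sec61b were likewise separate in KO and overlapping in Con. The overlap in Con rested on 1 library for many of them: without the lactation library M44175, Hyou1, Dnajc3, Edem1, Eif2ak3, Atf6, Creb3l1, Creb3l2 and Ero1l lay below in Con too, and so did Manf, Dnajb9 and Atf6 without the involution library M43768, Dnajc3 and Sec61b without the involution library M43914, Sec61b without the lactation library M42186 and Dnajb9 without the lactation library M43768. Ern1 lay above in Con without the involution library M43768. As deposited, Hspa5, Manf, Dnajb11, Edem1, Ern1, Atf6 and Ero1l lay above at involution in KO. limma called 0 members for a difference of the KO effect between stages, so these arrangements are not shown to differ between genotypes.

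The rest of the secretory pathway at involution was read from lists beyond the 36 members. Of 14 tested genes of the translocon and signal peptidase, 13 had negative differences with a median of -0.26, and of 14 genes of oligosaccharyltransferase and glycan trimming, all 14 were negative with a median of -0.27. Another 14 genes of ER-associated degradation were all negative with a median of -0.17, and 14 other folding enzymes had 11 negative with a median of -0.12. limma called none of these genes, and an unadjusted p under 0.05, all on the negative side, was found for 2 genes of the translocon list (Sec63 and Sec61a1) and 1 in each of the other 3 (Uggt1, Os9 and Creld2). Over all genes tested, 3.24% had a negative difference at that threshold. Uggt1, the folding sensor that re-glucosylates glycoproteins, averaged 9.70 ± 0.673 FPKM in KO glands and 13.8 ± 0.684 FPKM in Con glands (SD, n = 4 and 3), with separate groups. Creld2, an ER stress-inducible protein of the secretory pathway, averaged 26.9 ± 3.74 FPKM in KO glands and 40.8 ± 1.72 FPKM in Con glands. The COPII vesicle coat had 7 of 12 negative with a median of -0.03, with 1 gene of negative difference at an unadjusted p under 0.05 (Sec24d). In 2 of its genes every KO library lay below every Con library, against 4.42% of all genes. Cytosolic heat shock genes had 2 of 12 negative with a median of 0.09, with 0 at an unadjusted p under 0.05 and 0 with separate groups.

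Other genes of the ATF4 and amino acid response had 7 of 19 negative differences at involution and a median of 0.07. An unadjusted p under 0.05 was found for 2 lower and 3 higher genes, against 3.24% and 3.6% of all genes. The amino acid transporter Slc7a5 differed most, averaging 23.4 ± 8.68 FPKM in KO glands and 98.4 ± 26.7 FPKM in Con glands (SD, n = 4 and 3), a log2 difference of -2.04 ± 0.33 with an adjusted p of 0.134 from limma. Phgdh, which opens serine synthesis, stood the other way, at 23.1 ± 3.79 FPKM in KO glands and 14.6 ± 3.008 FPKM in Con glands. At lactation the same list had 14 of 18 negative with a median of -0.19, and the translocon and signal peptidase list 11 of 14 with a median of -0.17. Glycan trimming had 2 of 14 negative with a median of 0.14, and the other genes of ER-associated degradation 6 of 14 with a median of 0.07. Other folding enzymes had 7 of 14 negative with a median of 0.007. The COPII coat had 4 of 12 negative with a median of 0.17, and cytosolic heat shock 1 of 10 with a median of 0.28. No gene of these lists was called.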

How the data were processed

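Per the labels' protocols, RNA of frozen mammary glands was prepared with a TruSeq RNA kit for an Illumina HiSeq2000. The authors deposited FPKM per gene symbol, 1 table per stage, and per the submitters' processing notes used CASAVA, cutadapt and TopHat with mouse build mm9. Which program computed FPKM, from which annotation, is not given in the submitters' notes used here. Depth is known only relative to the stage mean, so no counting intervals are given.

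Within a table, each library's deposited FPKM were rescaled with its median-of-ratios factor (0.954 to 1.12 at lactation, 0.980 to 1.02 at involution) and transformed to log2(FPKM + 1), which understates changes of low genes. limma 3.58.1 in R 4.3.3 (lmFit, eBayes with trend, no covariates) was applied to every gene that reached 1 FPKM in 3 or more of the libraries fitted. Its two-sided p-values were adjusted by Benjamini-Hochberg across those genes, with a threshold of 0.05. Non-overlap of groups was counted on the deposited FPKM. Replicates are mice by their numbers in the library titles. Levels are given for all members. Log2 differences, errors and adjusted p are given for members without overlap and for the 5 with the smallest p in a comparison, and for other lists up to 2 genes with the smallest p. Promoter sequences come from RefSeq, build GRCm38.p6. Ero1l and Ero1lb were matched there as Ero1a and Ero1b. Promoter coordinates are of that build and not of mm9. Transcript lengths are medians per gene in GENCODE. Alternatives were a pseudocount of 0.1, no filter, values as deposited, quantile normalization, array weights, each library left out and, chosen after seeing the data, scaling to total FPKM outside milk proteins and short RNAs and, for the difference between stages, mouse number as a random block.

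The members, the lists and the motifs were chosen with earlier results of these data known.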

Additional observations from a re-analysis of the deposited data

How the results depend on the processing

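limma called 0 members in each comparison under each of 12 alternatives at lactation, 13 at involution and 20 for the difference between stages. At involution the members' median log2 difference stayed between -0.45 and -0.32, and the counts of members with an unadjusted p under 0.05 ran from 6 to 18 (13 as reported). Adjusted p of Derl3 there ran from 0.116 to 0.773. At lactation the median ran from -0.13 (without Con M44175) to 0.25 (scaling to total FPKM outside milk proteins and short RNAs), and that scaling moved the median of all genes to 0.19 at lactation and to -0.12 for the difference. Under it the log2 difference of Manf at lactation turned to 0.024, a reversal whose cause was not tested. Members with a negative difference and an unadjusted p under 0.05 at lactation numbered 0 as reported and 5 with array weights, and for the difference 5 as reported, 8 with array weights and 9 with the mouse block. KO libraries all lay below Con at lactation in 3 members as reported, 1 (Manf) with median-of-ratios factors and 0 with total scaling, and at involution in 9 to 19 (12 as reported). Side by side as deposited, involution lay above lactation in 21 members in KO and 25 in Con, against 80.1% and 73.3% of all genes. It lay below in 2 members in KO and 1 in Con, against 309 and 296 of 12667 genes, and the cause was not tested. With each library left out, the Con count below ranged from 7 to 16. Leaving out a library can only keep or raise this count and the counts of KO below Con. KO and Con libraries of a stage share no mouse number, and the stages share 1 number per genotype (M43767 in KO, M43768 in Con). Whether these are the same animals is not stated. A joint fit with mouse number as a random replicate block, added after seeing the data, had a correlation of 0.697 within a number. It called 0 members as well, and 20 of all genes, against 10 without the block. Low values limit Ern1 and the other sensors.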
